A study of Mus musculus with 9 samples.

Results

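The genes described here are *Ctsk*, *Acp5*, *Itgb3*, *Dcstamp*, *Ocstamp* and *Calcr*, 6 genes that mark the mature osteoclast, chosen by name for their known roles in cell fusion, attachment and resorption. All 6 were found among the 27179 genes of the count table, and all 6 were among the 16329 genes kept after the filter on low counts. Poly(A) RNA came from pulverized mandibles, teeth included, of C57BL/6 mice aged 6 months, with male sex given for the mutants. The groups were 5 wild type (WT) mice and 4 mice labelled FcγRIIB-/-, that is, without the inhibitory Fc gamma receptor whose loss gives a lupus-like disease. No treatment is named for either group, and the mutation is in every cell of the body, so it is not limited to osteoclasts. The comparison asks how the transcripts of bone-resorbing cells differ between jaws of the 2 genotypes.

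Osteoclasts are giant cells made by fusion of precursors of the monocyte lineage under the cytokines CSF1 and RANKL. They attach to bone through an integrin, seal off the space beneath them, acidify it to dissolve mineral, and release proteases that digest the collagen left behind. In the jaw they remodel the alveolar bone that carries the teeth. RNA of a whole bone mixes osteoclasts with marrow, stroma, muscle, epithelium and tooth cells, so fewer osteoclasts and less of a transcript per osteoclast cannot be told apart in these values.

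The total per library was between 24158960 and 26787359 counts in WT and between 21453880 and 28991631 in the libraries labelled FcγRIIB-/-. *Fcgr2b*, the targeted gene, was not lower under the knockout label. In CPM, read counts scaled to each library's normalized total, it averaged 24.0 ± 8.28 (SD, n = 5) in WT and 27.8 ± 2.90 (SD, n = 4) under the knockout label. Its log2 fold change, here always labelled FcγRIIB-/- over WT, was 0.21 with a standard error (SE) of 0.20 and an adjusted p of 0.442, and without WT replicate 2 it passed as higher (0.46, adjusted p = 0.0131). Adjusted p-values for genes are from edgeR's quasi-likelihood fit over all tested genes. The part of the gene that the reads cover cannot be seen from counts, and each direction given here is between libraries by their labels. The p-values weigh the difference between the labelled groups against the spread within them, over these 9 samples. The labels do not say more of the mice than strain, age and genotype. Anything else that differed between the groups, such as cage or preparation, cannot be told apart from genotype.

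RefSeq windows of 250 bases before the start site (GRCm38.p6) were found for 3 of the 6 genes: *Ctsk* with 1 start, *Acp5* with 3 and *Calcr* with 2. The window of *Ctsk* and the window of the most downstream *Acp5* start are shown because these 2 genes are the most abundant of the 6 and fell together. Both windows also match the same short pattern. The search covered both strands for GGAAA, the core read by NFAT factors, TGANTCA, the AP-1 site, TCANNTGA, and GAGGAAGT, a PU.1 site. TCANNTGA is a loose pattern that takes in sites of MITF and its relatives but also other sequences, so a match need not be such a site. Capitals mark the matches, and both sequences run 5′ to 3′ on the strand of the gene.
Ctsk, chr3:95498960-95499209, plus strand: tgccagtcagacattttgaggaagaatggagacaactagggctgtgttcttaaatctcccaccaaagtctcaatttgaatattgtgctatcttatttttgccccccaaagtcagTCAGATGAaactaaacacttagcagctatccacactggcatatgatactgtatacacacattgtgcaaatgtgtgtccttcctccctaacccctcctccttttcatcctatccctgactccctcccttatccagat
Acp5, chr9:22130599-22130848, minus strand: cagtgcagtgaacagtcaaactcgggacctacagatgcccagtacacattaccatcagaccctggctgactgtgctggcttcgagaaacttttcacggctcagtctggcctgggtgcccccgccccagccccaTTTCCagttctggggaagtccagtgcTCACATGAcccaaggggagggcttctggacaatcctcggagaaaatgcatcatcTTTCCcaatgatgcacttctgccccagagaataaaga
The pattern TCANNTGA starts 136 bases before the start site in *Ctsk*, as TCAGATGA, and 91 bases before it in *Acp5*, as TCACATGA. The matches differ in their middle bases. This pattern is present in 7.09% of 32817 windows of this length across the genome. The other 4 windows of these genes do not hold it, and the pair printed was picked for holding it, so its presence here is no finding. GGAAA, on either strand, is found 2 times in the *Acp5* window shown and in 55.6% of all windows. No match to TGANTCA (6.75% of windows) or GAGGAAGT (2.44%) occurred in any of the 6 windows of these genes. A match describes letters only, and binding was not measured.

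Of the 6 genes, 5 passed as lower under the knockout label (adjusted p under 0.05), against 19.3% of all tested genes called lower and 14% called higher. For the same 5 genes every library labelled FcγRIIB-/- lay below every WT library, which held for 17.5% of all tested genes. Those 5 also had log2 fold changes of -1 or below, a limit that 6.55% of tested genes passed together with the adjusted p. The remaining gene was *Calcr*. The median log2 fold change of the 6 was -1.14, and that of all tested genes was 0.01. The 5 genes that fell stood at 40.6% to 49.0% of their WT mean.

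*Ctsk* (chromosome 3 of GRCm38.p6, 95499210 to 95509387) encodes cathepsin K, the acid protease that cuts the collagen of bone. It was at 431, 541, 418, 416 and 547 CPM in WT replicates 1 to 5, and at 270, 236, 234 and 183 CPM in replicates 1 to 4 under the knockout label. WT replicates 2 and 5 were the high pair, and the highest library under the knockout label was still well below the lowest WT library. This gave a log2 fold change of -1.03 (SE 0.13, adjusted p = 0.000686).

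*Acp5* (chromosome 9, 22126727 to 22135746) encodes tartrate-resistant acid phosphatase (TRAP), the enzyme whose staining identifies osteoclasts in sections. It was at 193, 249, 191, 196 and 268 CPM in WT and at 132, 115, 111 and 53.4 CPM in the libraries labelled FcγRIIB-/-. WT replicates 2 and 5 were again the high pair, and replicate 4 under the knockout label was well below the other 3. The log2 fold change was -1.09 (SE 0.23, adjusted p = 0.00535), and -0.88 without that library.

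*Itgb3* (chromosome 11, 104608000 to 104670476) encodes the β3 chain of the integrin αvβ3, by which osteoclasts hold on to bone matrix. WT replicates 1 to 5 had 101, 112, 88.1, 96.3 and 125 CPM, and replicates 1 to 4 under the knockout label had 46.3, 35.5, 42.6 and 45.4. Its groups were the tightest of the 6 relative to their means, and here replicate 2, not replicate 4, was the lowest under the knockout label. The log2 fold change of -1.30 (SE 0.11, adjusted p = 9.53e-05) was the lowest of the 6 genes.

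**Figure D1:**
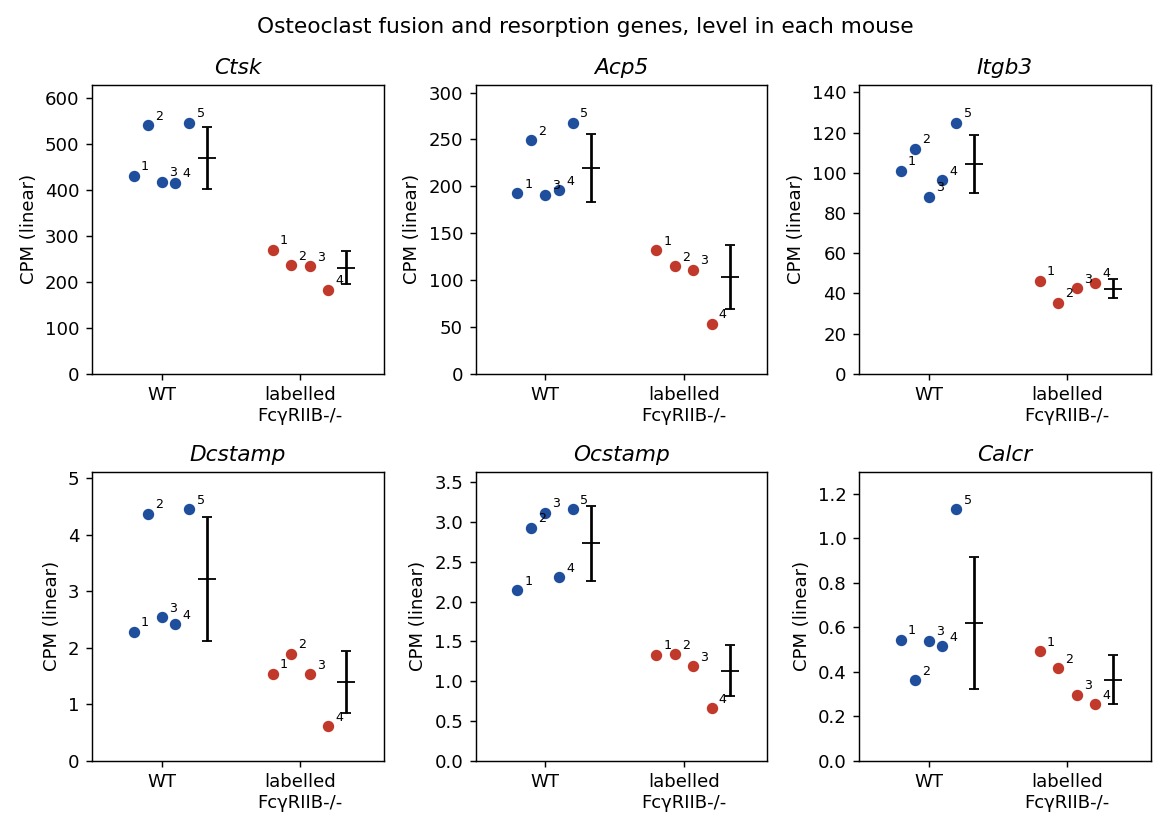
Level of the 6 genes in each mouse, in CPM on linear axes that start at 0. Points are libraries with their replicate number, and the bar beside each group is its mean ± SD (n = 5 WT, n = 4 labelled FcγRIIB-/-). The groups are apart in every panel except *Calcr*, where WT lies between 0.361 and 1.13 CPM and the other group between 0.253 and 0.491.

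*Dcstamp* and *Ocstamp* encode related multipass membrane proteins that osteoclast precursors need in order to fuse. *Dcstamp* (chromosome 15, 39745930 to 39760938) had 63, 109, 66, 66 and 114 counts in WT and 44, 41, 36 and 12 counts in the libraries labelled FcγRIIB-/-, or 2.28, 4.37, 2.54, 2.42 and 4.45 CPM against 1.54, 1.89, 1.53 and 0.608. WT replicates 2 and 5 were nearly alike and well above the other 3, which were not far above the highest library under the knockout label. The log2 fold change was -1.19 (SE 0.34, adjusted p = 0.0206), the least certain of the 5 that passed.

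*Ocstamp* (chromosome 2, 165395450 to 165400394) had 59, 73, 81, 63 and 81 counts in WT and 38, 29, 28 and 13 counts under the knockout label. In CPM this was 2.14, 2.93, 3.12, 2.31 and 3.16 against 1.33, 1.34, 1.19 and 0.659. Replicates 1 to 3 under the knockout label were close to each other, and replicate 4 was lower for *Ocstamp* as it was for *Dcstamp*. The log2 fold change was -1.26 (SE 0.24, adjusted p = 0.00351).

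*Calcr* (chromosome 6, 3685678 to 3764713) encodes the receptor through which calcitonin halts resorption. It was covered by few reads, with 15, 9, 14, 14 and 29 counts in WT and 14, 9, 7 and 5 in the libraries labelled FcγRIIB-/-. The 95% exact Poisson intervals, which cover counting error only, were 19.4 to 41.6 counts for the highest library and 1.62 to 11.7 for the lowest. The groups overlapped, and WT replicate 5 stood apart from the other WT mice. The log2 fold change was -0.73 (SE 0.38, adjusted p = 0.157), and -0.38 without WT replicate 5. No change of this gene was detected, and its absence is not shown.

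Per kilobase of exon, which allows genes to be compared with each other, the order of levels in WT was *Ctsk*, *Acp5*, *Itgb3*, *Dcstamp*, *Ocstamp* and *Calcr*. *Ctsk* was at 311 ± 44.6 CPM per kb (SD, n = 5) and *Acp5* at 108 ± 18.0. *Itgb3* was at 17.7 ± 2.46, and the fusion genes were lower again, with *Dcstamp* at 1.21 ± 0.412 and *Ocstamp* at 0.747 ± 0.130. *Calcr* was at 0.158 ± 0.0759 CPM per kb. The order by group means was the same in the libraries labelled FcγRIIB-/-, from 152 for *Ctsk* to 0.0931 for *Calcr*. *Dcstamp* and *Ocstamp* were the only neighbours whose ranges met, at 0.857 to 1.67 against 0.584 to 0.865 CPM per kb in WT and at 0.228 to 0.711 against 0.180 to 0.366 under the knockout label.

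The 6 genes were also set against each other within each library, to see whether any of them fell more than another. None of the 15 pairs differed in its log2 ratio between the genotypes after adjustment over the pairs (two-sided exact permutation test over all splits of the mice), and 0 of 15 had an unadjusted p under 0.05. The lowest unadjusted p was 0.0635, for *Calcr* against *Ocstamp* (difference 0.65) and *Calcr* against *Itgb3* (0.70). Among the 5 genes that fell, the largest difference of a pair was 0.26 on the log2 scale, between *Ctsk* and *Itgb3* (exact permutation p = 0.111, adjusted p = 0.381). On the log2 CPM scale WT mice had a *Dcstamp* to *Ocstamp* ratio of 0.18 ± 0.35 (SD, n = 5), and those under the knockout label one of 0.23 ± 0.25 (SD, n = 4). The smallest p that this permutation test allows is 0.00794, so a pair that differed alone could not pass after adjustment over 15 pairs. A pair that did not pass is not thereby shown to have fallen equally.

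WT replicate 5 had the highest level within WT for all 6 genes. The same library had the highest WT sums of macrophage, neutrophil, fibroblast and epithelial markers, and the macrophage sums were 1090 and 1110 CPM in WT replicates 2 and 5 against 635 to 746 CPM in the other 3. Replicate 4 of the libraries labelled FcγRIIB-/- had the lowest level in its group for 5 of the 6, the exception being *Itgb3*. That library also had the lowest total and the lowest normalization factor, 0.921. Their part in the spread was not tested. Without replicate 4 the 5 genes still passed, and without WT replicate 5 they did as well.

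**Figure D2:**
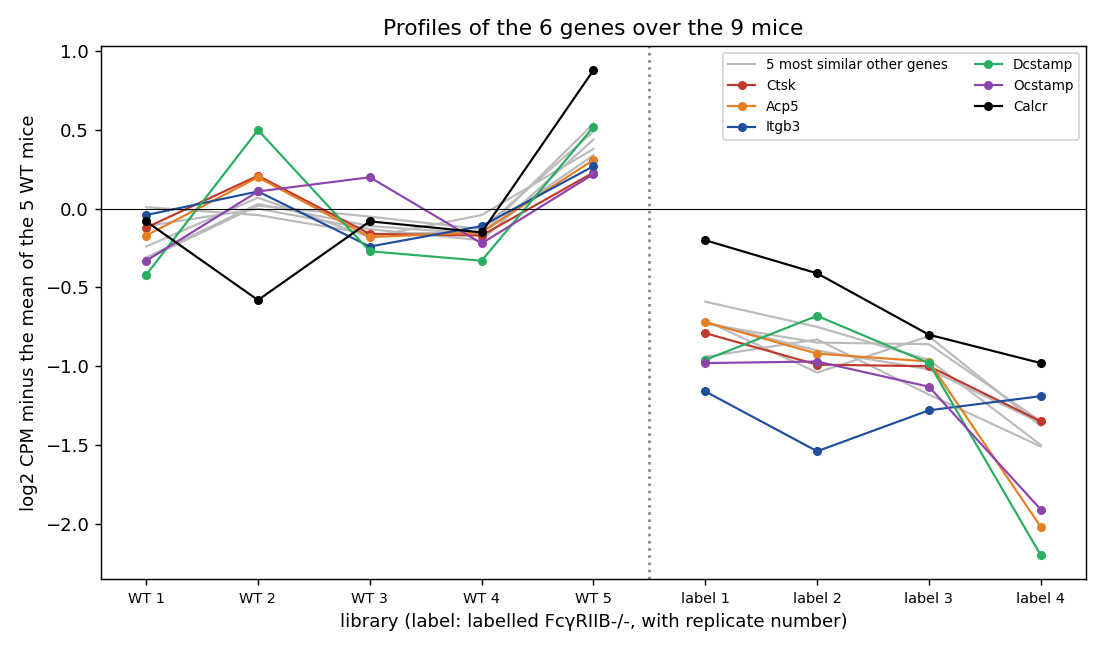
Profiles of the 6 genes over the 9 libraries, as log2 CPM minus the mean of the 5 WT mice, with the 5 other genes of most similar profile in grey. Lines only link the points of a gene within a genotype. All 6 genes are at their WT maximum in WT replicate 5, and replicate 4 of the libraries labelled FcγRIIB-/- is the lowest point of 5 of them.

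Likeness to the 6 genes was measured as the root mean square difference, over 9 libraries, between a gene's log2 CPM centred on its WT mean and the average centred profile of the 6. Among 12957 other genes with a mean log2 CPM of at least 2, the nearest were *Abhd2* (0.102), *Pcdhgb2* (0.119), *Snx29* (0.120), *Gfod1* (0.121) and *Col3a1* (0.125), where the median over these genes was 0.801. *Ctsk* itself was 0.118 from the average of the 6 and *Calcr* 0.442. *Col3a1*, a fibrillar collagen of soft connective tissue and no osteoclast gene, was at 13500 CPM in WT and 6850 under the knockout label. All 5 had log2 fold changes between -1.12 and -0.96. A gene that fell by the same amount lies close by this measure whatever its function.

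Around the 6 genes, 60 further osteoclast genes were grouped by role in 5 lists. Under the knockout label 30 of them passed as lower and 1 as higher, and their median log2 fold change was -0.29. The share called lower was 50%, beside 19.3% of all tested genes.

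Among 12 other genes of fusion, 6 were lower and 6 did not pass. *Siglec15*, a sialic acid receptor of preosteoclasts that pairs with DAP12, had the largest fall, at -2.12 on the log2 scale (SE 0.34, adjusted p = 0.00163). It rested on few reads, between 23 and 30 counts in WT and 11, 3, 7 and 2 counts under the knockout label. *Atp6v0d2*, a proton pump subunit required for fusion, was at 18.4, 27.6, 20.8, 20.9 and 34.4 CPM in WT and 12.5, 10.8, 9.70 and 7.70 under the knockout label (-1.26, adjusted p = 0.00163). *Oscar*, a collagen receptor that costimulates osteoclast formation, was at -1.27 (adjusted p = 0.00953). The tetraspanin *Cd9* was at the other end of the list at 0.18 (adjusted p = 0.208), and it passed as higher without WT replicate 5 (0.28, adjusted p = 0.0344).

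Of 12 other resorption genes, 6 were lower. *Mmp9*, a gelatinase that osteoclasts share with neutrophils, was at 223, 314, 217, 214 and 355 CPM in WT and at 102, 89.7, 75.3 and 28.7 in the libraries labelled FcγRIIB-/- (-1.84 on the log2 scale, SE 0.32, adjusted p = 0.0024). Its high and low libraries were those of *Acp5*, with WT replicates 2 and 5 at the top and replicate 4 under the knockout label at the bottom. *Car2*, carbonic anhydrase II, which makes the protons for acidification and is also abundant in red cell precursors, was at -1.25 (adjusted p = 2.09e-04). The chloride channel *Clcn7* (-0.08), its partner *Ostm1* (-0.14), the pump subunit *Tcirg1* (-0.04) and the anion exchanger *Slc4a2* (0.02) did not pass, with adjusted p between 0.121 and 0.868.

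In the list of 15 genes of integrin attachment, 9 were lower. *Itgav*, the α partner of *Itgb3* in osteoclasts, was at 169, 185, 169, 169 and 191 CPM in WT and at 144, 164, 161 and 138 under the knockout label. Its log2 fold change of -0.22 (adjusted p = 0.0496) was small beside that of *Itgb3* and lost the call in 10 of 14 alternative fits. *Syk* (-1.15), *Cbl* (-1.32), *Fermt3* (-1.11) and *Rac2* (-1.90), which act below integrins in blood cells of many kinds, fell by more. The kinase *Src*, which is needed for the ruffled border and is made in most cells, was at 63.8 ± 3.70 CPM (SD, n = 5) in WT and 61.5 ± 3.25 (SD, n = 4) under the knockout label, and did not pass (adjusted p = 0.543). *Rac1*, the widely made relative of *Rac2*, was at the upper end of the list at 0.08 (adjusted p = 0.426).

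**Figure D3:**
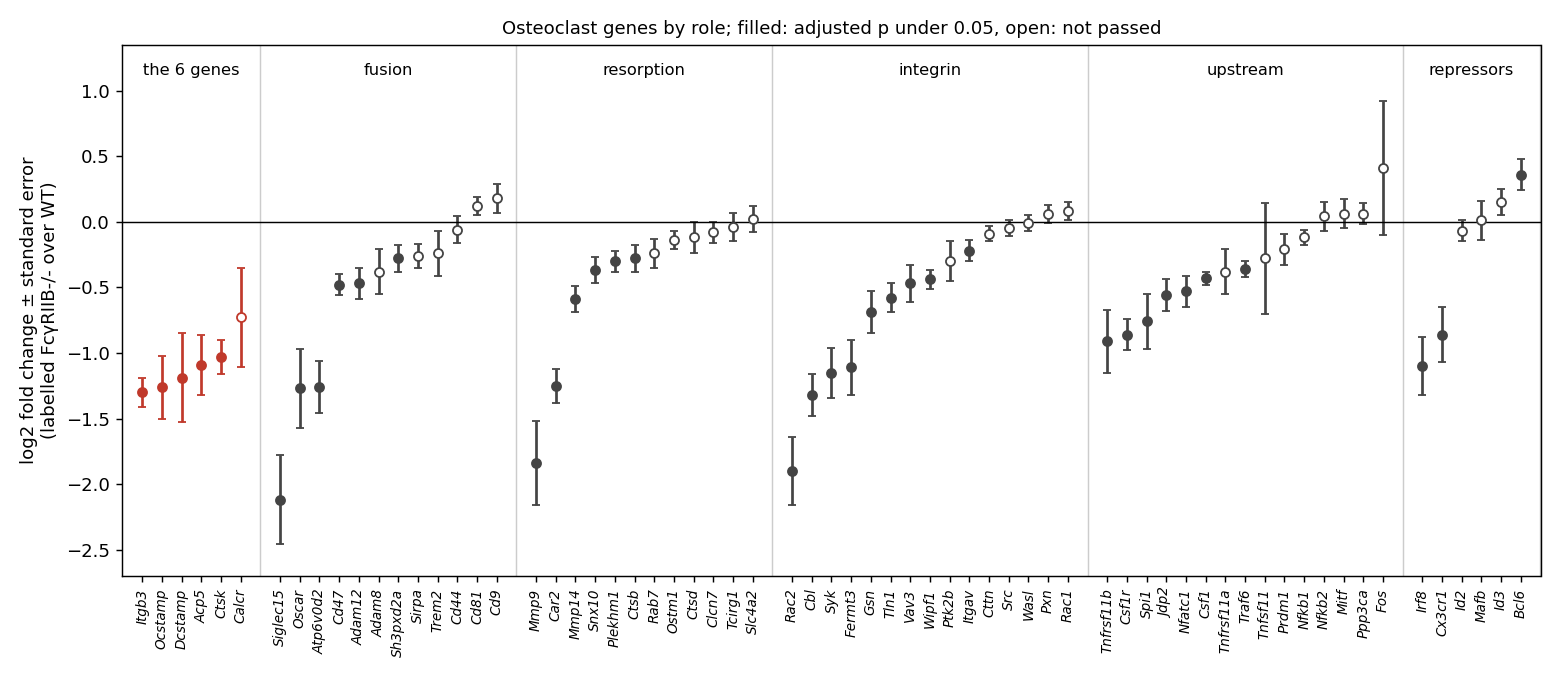
Log2 fold change ± standard error of the 6 genes (red) and of 60 other osteoclast genes grouped by role, libraries labelled FcγRIIB-/- over WT. Filled points have an adjusted p under 0.05 (edgeR). The 6 genes lie between -1.30 and -0.73, and the other lists spread from -2.12 to 0.41.

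Upstream of the 6 genes, 7 of 15 receptors, cytokines and transcription factors were lower and 8 did not pass. *Nfatc1*, the master transcription factor of osteoclast genes, fell by 0.53 on the log2 scale, from 59.7 ± 10.8 CPM (SD, n = 5) to 41.2 ± 3.69 (SD, n = 4) (adjusted p = 0.00885). *Csf1r*, the CSF1 receptor of precursors and macrophages, fell by 0.86 (adjusted p = 0.00105), and *Tnfrsf11a*, which encodes RANK, was at -0.38 (adjusted p = 0.12). *Tnfrsf11b*, the decoy receptor for RANKL, was at -0.91 (adjusted p = 0.0151), and at -0.65 without WT replicate 5, where *Csf1r* was at -0.77. *Tnfsf11*, which encodes RANKL, was at -0.28 and did not pass (adjusted p = 0.643), and *Csf1* was lower at -0.43 (adjusted p = 0.000441). *Fos* was the highest at 0.41 with a standard error of 0.51 (adjusted p = 0.564). *Mitf*, whose sites are among those that the pattern TCANNTGA takes in, was at 0.06 (adjusted p = 0.697).

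In the list of 6 genes named repressors of osteoclast genes, *Irf8* (-1.10, adjusted p = 0.00423) and *Cx3cr1* (-0.86, adjusted p = 0.0103) were lower. The latter is a chemokine receptor of monocytes rather than a transcription factor or repressor, but it counts among the 30 of 60 genes called lower. *Bcl6* was the only gene of the 60 called higher (0.36, adjusted p = 0.0394), and this call was lost in 8 of 14 alternative fits.

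Markers of other cells that make the same transcripts were read beside these values. For the marker counts here and below, the shares over all tested genes are 19.3% called lower and 14% called higher. Of 12 monocyte and macrophage markers, 4 were lower, none was higher and 8 did not pass, with a median log2 fold change of -0.04. The 4 were *Adgre1* (-0.60) and *Cd68* (-0.63), taken as the defining markers, *Mrc1* (-0.93) and *Lyz2* (-1.30). The 8 that did not pass ran from -0.64 for *Cd163* to 0.38 for *Fcgr1*, with *C1qa* at -0.06, *C1qb* at 0.20, *C1qc* at 0.04 and *Mertk* at 0.08. *Csf1r* and *Cx3cr1*, also of monocytes and macrophages and lower, stand in the osteoclast lists. The summed level of the 12 markers was between 635 and 1110 CPM in WT and between 504 and 672 CPM under the knockout label, so the groups overlapped. *Lyz2* was the largest part of that sum, at a mean of 434 CPM in WT and 176 CPM under the knockout label. Relative to the mean log2 CPM of these 12 markers in the same library, *Ctsk* was lower by 0.78, *Acp5* by 0.90, *Dcstamp* by 0.95, *Ocstamp* by 0.99 and *Itgb3* by 1.04 under the knockout label (two-sided exact permutation test, p = 0.00794 each, the smallest p that these groups allow, adjusted p = 0.0127 over 8 ratios). In each of these 5 ratios every WT library lay above every library labelled FcγRIIB-/-. The same 5 genes were already apart in CPM without the ratio, so this is no separate result. The share of all tested genes that lie apart in such a ratio was not computed. *Calcr* was lower by 0.35 and did not pass (exact permutation p = 0.341). The median of the 12 markers in place of their mean gave -0.69 for *Dcstamp* (adjusted p = 0.0635), and the other 4 still passed. The size of these ratios depends on which markers the list holds, and other lists of macrophage markers were not tested.

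**Figure D4:**
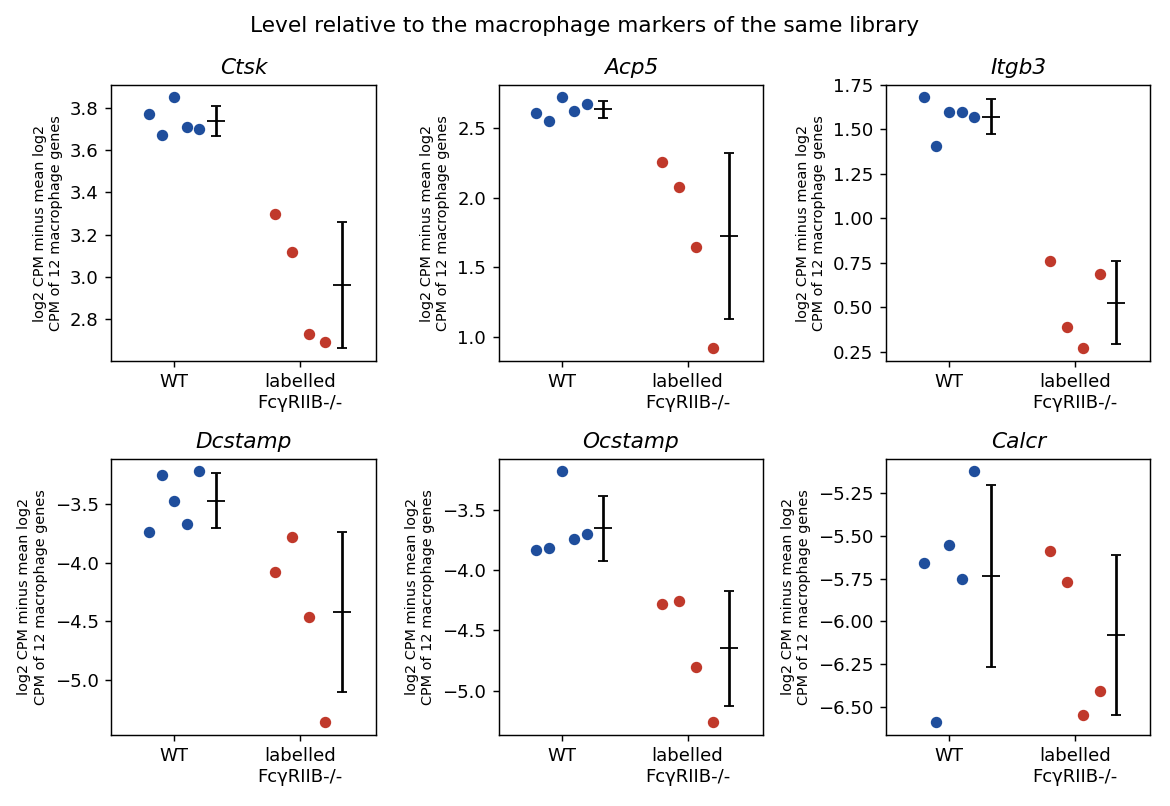
Log2 CPM of each gene minus the mean log2 CPM of 12 macrophage markers in the same library, with each group's mean ± SD beside the points (n = 5 WT, n = 4 labelled FcγRIIB-/-). The y axes differ between panels and do not start at 0. *Ctsk* lies between 3.67 and 3.85 in WT and between 2.69 and 3.30 under the knockout label, and *Calcr* overlaps.

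*Itgb3* is also the platelet integrin chain, where it pairs with *Itga2b*. All 11 megakaryocyte and platelet markers were lower in the libraries labelled FcγRIIB-/- (median log2 fold change -1.56), with summed levels of 288 to 384 CPM in WT and 81.2 to 145 CPM under the knockout label. *Itga2b* was at 56.0, 53.7, 44.3, 44.4 and 55.6 CPM in WT and 18.0, 9.24, 14.7 and 27.6 under the knockout label (-1.55, adjusted p = 0.00164). Replicate 2 was the lowest library under the knockout label for both chains. Relative to the 11 markers *Itgb3* was higher by 0.68 under the knockout label and did not pass (exact permutation p = 0.0556, adjusted p = 0.0635). Both the value and the call changed with the setting and with single libraries. With all libraries and a prior count of 0.5 the difference was 0.76 and passed (adjusted p = 0.0454). It was 0.39 without replicate 2 under the knockout label (adjusted p = 0.163) and 0.96 without replicate 4, where it passed (adjusted p = 0.0238). How much of the *Itgb3* count comes from platelets was not tested.

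*Ctsk* is made by fibroblasts and periosteal cells as well, and *Calcr* by muscle satellite cells. Of 9 fibroblast markers 5 were lower, with a median log2 fold change of -0.38 and summed levels of 38000 to 52800 CPM in WT and 22200 to 27500 CPM under the knockout label. *Postn*, a matrix protein of the periodontal ligament, was the lowest at -1.31. The largest parts of the fibroblast sums were *Col1a2*, at a mean of 18100 CPM in WT, and *Col3a1*, at 13500 CPM. Of 10 osteoblast markers 2 were lower, close to the 19.3% of all tested genes, with a median of 0.07 and overlapping sums of 28400 to 44700 and 30800 to 41900 CPM. *Col1a1* was the largest part of those sums, at a mean of 31300 CPM in WT and 32600 CPM under the knockout label. None of 6 tested satellite cell markers passed in edgeR's test, and their median was 0.30. *Pax7*, the defining gene of those cells, had 2 to 16 counts and was left out by the filter. Relative to the satellite cell markers *Calcr* was lower by 1.06 (exact permutation p = 0.0159, adjusted p = 0.0212), with adjusted p = 0.0529 for the median of that list. *Calcr* without the ratio did not pass, and the ratio also takes in the shift of the list. The list rose most in *Chrdl2*, from a mean of 0.269 CPM in WT to 0.845 CPM under the knockout label. *Des* was next, from 540 to 817 CPM, while *Cdh15* (-0.06) and *Musk* (-0.03) did not rise. A fall of *Calcr* apart from this shift was not tested.

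Marrow markers shared the direction of the 6 genes between the groups, and their order among libraries differed from list to list. All 10 neutrophil markers were lower (median log2 fold change -3.14, sums of 1140 to 3460 CPM in WT and 141 to 421 under the knockout label), all 9 erythroid markers were lower (median -3.95, sums of 1660 to 1990 and 97.4 to 431 CPM), and 8 of 9 B cell markers were lower (median -2.12, sums of 46.4 to 128 and 15.2 to 33.7 CPM). Muscle fibre markers were higher in 4 of 8 (median 0.74, sums of 7590 to 17600 and 17300 to 29900 CPM). Of 7 tested epithelial markers 4 were lower and 1 was higher (median -1.95, sums of 3240 to 7270 and 4370 to 5390 CPM). Under the knockout label the erythroid, B cell and megakaryocyte sums were highest in replicate 4 (431, 33.7 and 145 CPM), where the summed level of the 6 genes was lowest (283 CPM). The neutrophil sum was highest in replicate 1 (421 CPM), as was that of the 6 genes (451 CPM), and lowest in replicate 2 (141 CPM). Within WT the neutrophil sum and that of the 6 genes were both highest in replicate 5 and lowest in replicate 3. The part of these shifts in the levels of the 6 genes was not tested.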

How the data were processed

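Mandibles of 5 WT mice and 4 mice labelled FcγRIIB-/- gave 1 stranded poly(A) library each. According to the methods and the submitters' processing notes, the authors used Trim Galore for trimming, HISAT 02.1.0 for alignment (mm10) and featureCounts for counting. The deposited values are raw counts per gene without normalization. The annotation and the strand setting are not given in the sources used here. The table held 1 column that matches no sample, and it was not used.

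The counts were analysed in R 4.3.3 with edgeR 4.0.16 over all 9 libraries: filterByExpr (minimum count 10), TMM, the quasi-likelihood test of genotype without covariates, and Benjamini-Hochberg adjustment over 16329 genes at 0.05. SE was taken as the size of the log2 fold change divided by the root of the F statistic. CPM uses the TMM-scaled library size, and log2 CPM a prior count of 2. Ratios within a library and pairs of genes were tested by exact permutation (two-sided, each possible split of the 9 mice, smallest possible p 0.00794), adjusted over 8 ratios and over 15 pairs. Exon lengths came from GENCODE M21, coordinates and sequences from RefSeq for GRCm38.p6. DESeq2 1.42.0 was an alternative. The gene fits were tested on 1 simulated data set in which 200 of 16329 genes changed by 1 on the log2 scale. There the share of false calls was above the nominal level for edgeR and further above it for DESeq2. Far more genes were called in the real data (3144 lower and 2289 higher), so these shares need not hold there. Adjusted p-values near the threshold are to be read with caution.

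Totals lay between 21453880 and 28991631 counts per library, so *Calcr*, *Dcstamp*, *Ocstamp* and *Siglec15* rest on few reads. No pair of libraries of 1 genotype was alike within counting noise (lowest chi-square per degree of freedom 12.5). The 6 genes and all lists were chosen with earlier results of these data known. Named are the 6 genes, *Fcgr2b*, 10 direct partners, the genes with the lowest and highest log2 fold change of each osteoclast list, marker genes beside which a value stands, and the 5 most similar profiles. The other list members (such as *Oscar*, *Clcn7*, *Syk*, *Cbl*, *Mitf*, *Cx3cr1*) were named after their values were seen.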

Additional observations from a re-analysis of the deposited data

Results flagged for a closer look

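Among 60 groups of 4 or 5 libraries (30 named genes in 2 genotypes), 5 held a library that stood apart from the rest of its group by Dixon's criterion, which chance meets in about 1 of 20 groups. *Calcr* was at 1.13 CPM in WT replicate 5, where the next WT library had 0.543. *Tnfrsf11b* was at 46.9 CPM in the same mouse, with 26.8 as the next WT value. *Col3a1*, 1 of the genes of most similar profile, was at 18100 CPM there, the next WT value being 13400. *Fcgr2b* was at 38.3 CPM in WT replicate 2, with the next WT library at 23.1, and at 32.1 CPM in replicate 4 of the libraries labelled FcγRIIB-/-, with the next at 26.6.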

How the results depend on the processing

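In 14 alternative fits, the 5 genes that were lower stayed lower at an adjusted p under 0.05, and *Calcr* stayed negative without passing (log2 fold change between -0.92 and -0.38, adjusted p between 0.109 and 0.413). Leaving out single mice, the number of the 6 genes called lower stayed at 5. The adjusted p reached 0.0441 for *Dcstamp* and 0.0155 for *Acp5* at most. The number of the 60 other osteoclast genes called lower was between 24 and 32 in all but 1 of the settings, and 10 with a log2 fold change of at least 1 required, which leaves by construction only larger changes. The number called higher was 0 with that limit, with total counts only and under the replicate block, and between 0 and 1 with each mouse left out. The median log2 fold change of all tested genes was 0.02 with DESeq2's size factors and -0.07 with total counts only. Replicate numbers are those of the sample titles, and equal numbers in both genotypes name different mice. Under the replicate block, the 6 genes gave 5 lower and the other osteoclast genes 24 lower, and the correlation of same-numbered libraries' deviations lay between -0.114 and 0.0969, so the numbers pair nothing. The 6 of 8 ratios that passed became 7 with a prior count of 0.5 and 4 with the median of the marker lists. They were 6 to 7 with each mouse left out. The pairs of genes that passed stayed at 0, but a pair that differed alone could not have passed in any of these settings. With profiles scaled to unit SD, 1 of the 5 genes of most similar profile was still among the nearest 5.

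Small differences changed sign in some settings, and the cause was not tested. *Slc4a2* turned to -0.05 with total counts only and to -0.02 under the replicate block, and *Fos* to -0.02 under that block. With single mice left out *Slc4a2* lay between -0.00 and 0.10 and *Fos* between -0.32 (without labelled replicate 2) and 0.70. Among pairs of the 6 genes, with single mice left out, the difference ranged from -0.06 to 0.19 for *Ctsk* against *Acp5*, -0.05 to 0.33 for *Ctsk* against *Dcstamp*, -0.03 to 0.14 for *Acp5* against *Dcstamp*, -0.01 to 0.16 for *Acp5* against *Ocstamp*, -0.02 to 0.46 for *Acp5* against *Itgb3*, -0.07 to 0.16 for *Dcstamp* against *Ocstamp*, -0.16 to 0.46 for *Dcstamp* against *Itgb3* and -0.13 to 0.30 for *Ocstamp* against *Itgb3*. *Calcr* and *Siglec15* rest on at most 29 and 30 counts per library.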
